A study of Mus musculus with 2 samples.

Results

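Mural cells are the contractile cells that wrap small blood vessels: pericytes sit on capillaries and share their basement membrane, and vascular smooth muscle cells line larger vessels. Endothelial cells recruit them through platelet-derived growth factor B acting on the receptor Pdgfrb, and contact through the receptor Notch3 keeps them in the mural state by way of transcription factors of the Hes and Hey families. Rgs5, a GTPase-activating protein that dampens signals from G protein-coupled receptors, is among the transcripts most used to mark them. In adipose tissue they are released with the stromal vascular fraction, the mixed non-adipocyte cells from which preadipocytes are grown.

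The cells described here were chosen from 2 cultures of that fraction as those with at least 3 UMIs (unique molecular identifiers, each standing for 1 captured transcript) of Rgs5, at least 1 of Notch3, and 0 of Pecam1 and Epcam, the endothelial and epithelial surface markers. They number 194 of 57959 cells kept for having over 200 genes detected but under 7500, with mitochondrial UMIs below 30%. Inguinal white adipose tissue (iWAT) gave 48 of 29744 such cells, a share of 0.161% (95% exact binomial interval 0.119 to 0.214). Interscapular brown adipose tissue (iBAT) gave 146 of 28215, or 0.517% (0.437 to 0.608). The rule takes raw UMIs from libraries of unequal depth. With cells first thinned to 10000 UMIs the shares were 0.0952% in iWAT (23 of 24156) and 0.262% in iBAT (74 of 28215). Cells shallower than that were dropped: 5588 in iWAT, 6 of the 48 members among them, and 0 in iBAT. The iWAT share thus also rests on a different set of cells. Without cells that carried Pdgfra the iBAT share was 0.174%. The comparator in each depot was every cell with at least 1 Pdgfra UMI and no Rgs5 UMI, which takes in most of the preadipocyte-like stroma: 17069 cells in iWAT and 24888 in iBAT.

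By the labels, both cultures came from wild-type C57BL/6N mice of 8 to 12 weeks, with tissue pooled, and were grown to 80% confluency and held for 48 hours with fibroblast growth factor (FGF) at 5.5 nM or left untreated. Each depot was 1 library on the BD Rhapsody whole-transcriptome platform. The sample labels name tagged untreated, FGF1, FGF2 and FGF8 cultures in each, the series description names untreated and FGF2 only, and the tag of a cell was not used here, so the members mix treated and untreated cells and no treatment was compared. The comparator mixes them too, and whether the mix was the same in both classes is not known. The 2 libraries also differed in sex-linked transcripts: members had 293 CPM (the UMIs of a gene summed over a class of cells, per 1000000 UMIs of that class) of Xist in iWAT and no Xist UMI in iBAT, and 92.4 CPM of Ddx3y in iBAT and no UMI of it in iWAT. Depot, library and these transcripts cannot be told apart, and with 1 library per depot no test was made. All intervals cover counting error only.

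In the mouse genome (GRCm39) Rgs5 lies on chromosome 1 at 169483036 to 169524887, plus strand, and Notch3 on chromosome 17 at 32339794 to 32385893, minus strand. The threshold on Rgs5 cut through a continuous range. Rgs5 was detected in 871 filtered iWAT cells (2.93%) and in 1150 iBAT cells (4.08%), and 250 and 198 of them had at least 3 UMIs. In iWAT most of these were not members: 161 of the 250 carried Epcam, against 0 of the 198 in iBAT. Members therefore made up 19.2% of the cells at or above 3 Rgs5 UMIs in iWAT and 73.7% in iBAT. They held 13.2% of all Rgs5 UMIs in iWAT and 57.9% in iBAT. Within the members the median was 5 Rgs5 UMIs in iWAT, with a highest value of 24, and 7 in iBAT, with a highest value of 126. For Notch3 the median was 2 in iWAT and 4 in iBAT, and 20 and 30 members respectively passed with a single Notch3 UMI.

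Cells just inside and just outside the rule were compared by level. In iWAT 9 members had exactly 3 Rgs5 UMIs, in iBAT 34. The 36 iWAT cells with enough Rgs5 but no Notch3 UMI had 110.4 CPM of Myh11, the smooth muscle myosin heavy chain, and the 14 with Notch3 but only 2 Rgs5 UMIs had 121 CPM, beside 268 CPM in members. In iBAT the 45 cells without Notch3 had 20 CPM of Mcam, a mural and endothelial adhesion molecule, and the 52 with 2 Rgs5 UMIs had 62.4 CPM, beside 149.8 CPM in members and 13.4 CPM in the comparator. The summed pericyte list was at 929.7 CPM without Notch3 and 1047 CPM with 2 Rgs5 UMIs in iWAT, between 437 CPM in the comparator and 1831 CPM in members. In iBAT it was at 438 and 674 CPM, between 351 and 1144 CPM, and 97.8% of the iBAT cells without Notch3 carried Pdgfra. The iBAT cells just outside on Notch3 thus lay near the comparator. The 61 iWAT cells that met both UMI minimums but carried Epcam had 14.4 CPM of Abcc9, a vascular potassium channel subunit, where members had 79.0 CPM.

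Members were not deeper than the comparator. Their median was 14748 UMIs per cell in iWAT and 24321.5 in iBAT, below the comparator medians of 18080 and 27779. Doublets called by Scrublet were 0 of 48 members in iWAT and 5 of 146 in iBAT (3.42%), where the whole libraries had 1.92% and 3.63%. The libraries shared 8 cell barcodes, none of them among the members.

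A Pdgfra UMI, the mark of the comparator, was found in 12 of 48 members in iWAT (25%) and in 97 of 146 in iBAT (66.4%). The rule did not use Pdgfra, and members with and without it are given separately below where they differed. The comparator was chosen by Pdgfra, so members without it differ from the comparator by selection, also in genes that go with Pdgfra. Contrasts by Pdgfra are thus a description. The 5 doublet calls in iBAT were all among members with Pdgfra. Those without it had fewer UMIs per cell, with medians of 13119 against 19373.5 in iWAT and 21916 against 26128 in iBAT.

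The label was first checked against the marker genes that the rule did not use. Pdgfrb, the receptor through which mural cells are recruited, was at 242 CPM in iWAT members (208 to 280.2, in 40 of 48 cells) against 112 CPM in the comparator, a ratio of 2.17 (1.86 to 2.51). In iBAT it was at 300.2 CPM (283 to 318, in 143 of 146 cells) against 147 CPM, a ratio of 2.04 (1.92 to 2.16). Stromal cells also carried it in both depots, so it separated members by level and not by presence. Cspg4, the NG2 proteoglycan of the pericyte surface, was at 60.2 CPM in iWAT members and 47.7 CPM in the comparator, and the interval of the ratio, 0.920 to 1.69, spanned 1. In iBAT members it reached 113 CPM against 30.4 CPM, 3.70 times higher (3.35 to 4.08). Kcnj8, the pore subunit of the pericyte ATP-sensitive potassium channel, gave 6 UMIs in each depot, in 5 iWAT cells and 6 iBAT cells. The comparator gave 16 and 187, from 3.18e+08 and 7.13e+08 summed UMIs of all genes, where members had 747104 and 3.68e+06. Per summed UMI Kcnj8 was thus higher in members of both depots, on few counts.

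The pericyte list held 25 genes, Rgs5 and Notch3 left out. Of all 9058 genes with at least 10 CPM in either class in iWAT, 529 (5.84%) were at least 2-fold higher in members, with a median log2 ratio over all genes of -0.05. In the opposite direction 568 (6.27%) were at least 2-fold lower. Of the 20 pericyte genes tested 17 were 2-fold higher, none was 2-fold lower, and the list's median log2 ratio was 2.67. In iBAT 287 of 8952 genes (3.21%) were 2-fold higher and 214 (2.39%) lower, with a median of -0.06 over all genes, while 14 of 17 pericyte genes were, with none 2-fold lower and a median of 2.16. Anpep, an ectopeptidase, and Foxf2, a forkhead factor of brain pericytes, were not 2-fold higher in either depot, with ratios of 0.924 and 0.595 in iWAT and 1.09 and 0.594 in iBAT. A gene low in the comparator could enter these counts only through the members, where it then had to be higher, so the counts are a description of the genes that passed 10 CPM and not of the whole list. With no minimum, 18 genes in iWAT and 20 in iBAT of the 25 were 2-fold higher. The limit of the 10 CPM minimum holds for the counts of every list below. The shares over all genes given here are the ones to set beside those counts.

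Among the better measured of these genes, the channel and cyclic GMP pair stood out in iWAT. Abcc9, the sulphonylurea receptor partner of Kcnj8, was at 79.0 CPM in iWAT members (60.1 to 102) and 1.72 CPM in the comparator, 45.9 times higher (34.5 to 60.1). In iBAT it was at 20.4 CPM against 7.11 CPM, only 2.87 times higher (2.25 to 3.60). Gucy1a1, a subunit of the soluble guanylate cyclase that senses nitric oxide, was at 77.6 CPM against 1.01 CPM in iWAT and at 22.8 CPM against 1.00 CPM in iBAT, ratios of 76.5 (56.8 to 101) and 22.8 (18.0 to 28.7). Its partner Gucy1b1 had ratios of 8.67 (6.89 to 10.8) and 9.21 (7.84 to 10.8). The nitric oxide receptor was therefore higher in members of both depots through both subunits.

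Mcam, also called CD146, was at 174 CPM in iWAT members and 149.8 CPM in iBAT members, 12.8 (10.7 to 15.2) and 11.2 times (10.2 to 12.2) the comparator. Rgs4, a relative of Rgs5, was 29.0 (23.7 to 35.1) and 22.8 times (20.4 to 25.4) higher, at 149 and 101 CPM. Des, the muscle intermediate filament desmin, was 14.3 (11 to 18.3) and 7.22 times (5.53 to 9.26) higher. Of the other regulators of G protein signalling Rgs4 was the single 2-fold higher gene, in iWAT among 7 tested and in iBAT among 8, where Rgs2 was lower (0.420, 0.274 to 0.615). Ndufa4l2 and Cox4i2, variants of respiratory chain subunits found in mural cells, were 3.58 and 5.08 times higher in iWAT and 7.37 and 4.46 times higher in iBAT.

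Higd1b and Vtn are held to be among the most restricted pericyte transcripts. Higd1b gave 8 UMIs in 6 iWAT members against 3 UMIs in the 17069 comparator cells, and 21 UMIs in 12 iBAT members against 18 in the comparator. Vtn, which encodes vitronectin, gave 18 UMIs in 9 iWAT members and 13 in 12 iBAT members. Both were nearly absent from the comparator and also absent from most members.

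**Figure D1:**
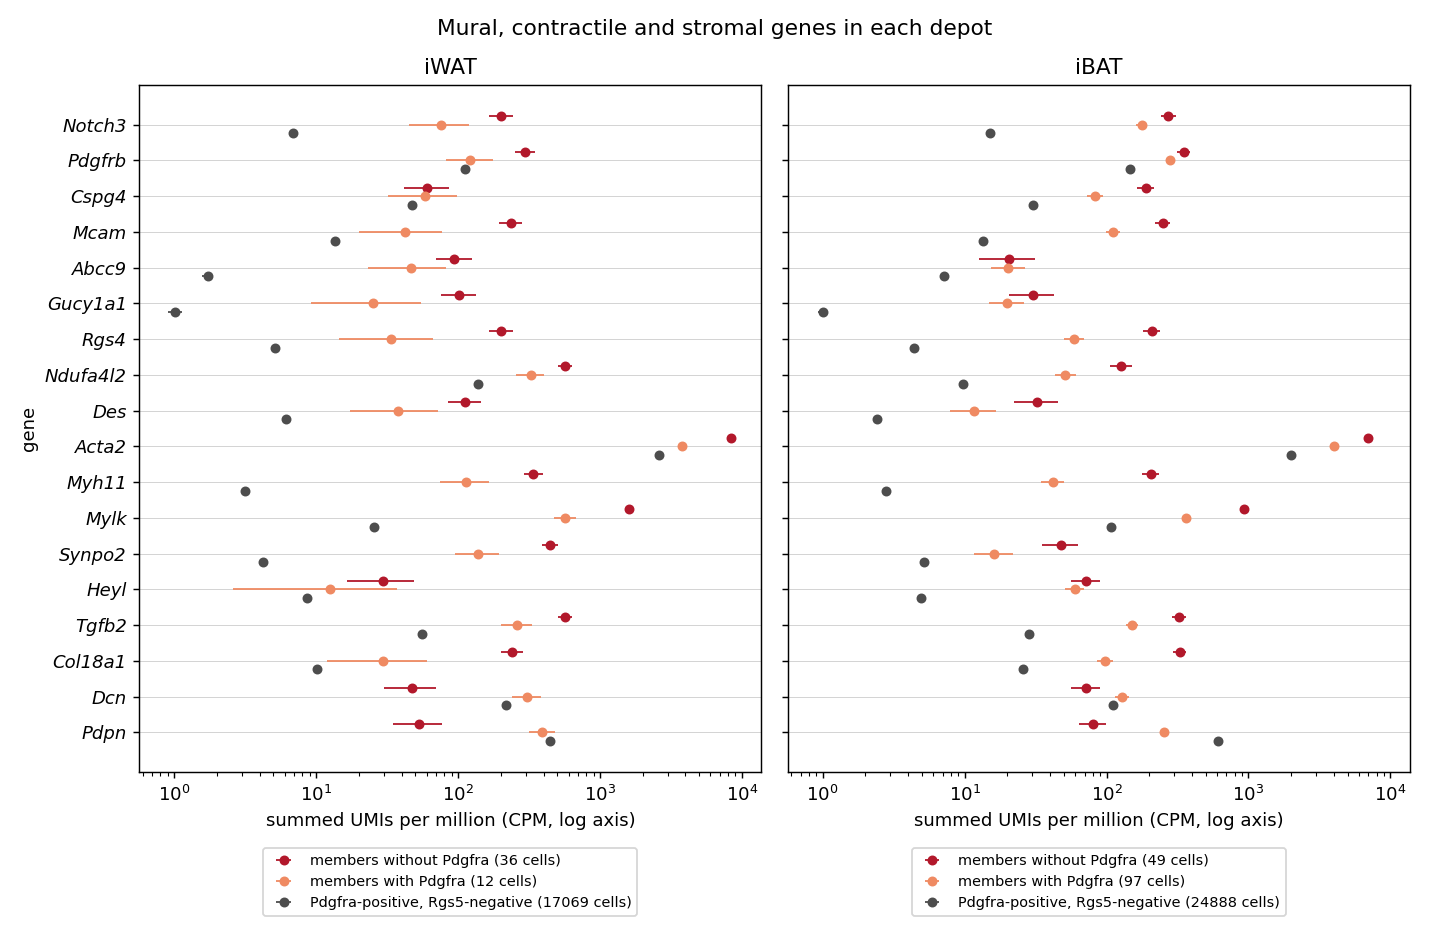
Levels of 18 genes, in CPM on a log axis, in members without Pdgfra, members with Pdgfra and the Pdgfra-positive, Rgs5-negative comparator cells of each depot. Notch3 is among them and was used by the rule, so its level in members is a description. Bars are 95% exact Poisson intervals of the summed UMIs. Mcam, Rgs4 and Myh11 lie highest in members without Pdgfra and lowest in the comparator, and Pdpn the other way round.

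The same limit holds for the contractile list, of which 24 of 25 genes were found in the matrices. In iWAT 13 of 17 tested genes of the contractile list were 2-fold higher in members and none 2-fold lower, with a median log2 ratio of 1.55, and in iBAT 14 of 20 and none, with a median of 1.81. With no minimum the counts of higher genes were 15 and 16. Genes of the late smooth muscle programme gave the largest ratios. Myh11 was at 268 CPM in iWAT members (232 to 307) against 3.15 CPM, 84.9 times higher (72.6 to 98.9), and at 87.3 CPM in iBAT members (78.0 to 97.4) against 2.78 CPM, 31.4 times higher (27.8 to 35.3). It was detected in 38 of 48 iWAT members but in 44 of 146 iBAT members. Mylk, the kinase that activates smooth muscle myosin, was at 1273 CPM against 25.5 CPM in iWAT, 50 times higher (46.7 to 53.5), and at 523 CPM against 107 CPM in iBAT, 4.89 times higher (4.67 to 5.11). Synpo2, an actin-binding protein of the muscle Z-disc, was 82.1 times higher in iWAT (71.6 to 93.9) and 4.83 times in iBAT (3.89 to 5.94).

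Genes that cultured fibroblasts also use under tension were closer to the comparator. Acta2, smooth muscle actin, was at 6920.1 CPM in iWAT members against 2618 CPM (ratio 2.64, 2.57 to 2.72) and at 4861 CPM in iBAT members against 1996 CPM (2.44, 2.40 to 2.47). Tagln, an actin-bundling protein, had ratios of 2.10 and 1.80, and Cnn1, calponin, 2.29 and 2.21. Tpm1, Tpm2 and Cald1, the tropomyosins and caldesmon, stayed under 2-fold in both depots. Outside the list, Ppp1r14a, the smooth muscle inhibitor of myosin phosphatase, was 61.6 times higher in iWAT members (54.8 to 69.2) and 14 times in iBAT members (12.7 to 15.4).

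Since part of the stroma in culture is itself contractile, members were also set against the comparator cells with the largest share of UMIs in Acta2, Tagln, Cnn1 and Myl9, the highest 5%: 854 cells in iWAT and 1245 in iBAT. These cells were chosen by those 4 genes, so their levels in them, and the sum of the contractile list that holds them, are a description. Acta2 was no higher in members than in them, with ratios of 0.939 (0.913 to 0.966) in iWAT and 0.650 (0.640 to 0.660) in iBAT. Myh11 was, by 14.4 times (12.0 to 17.2) and 3.30 times (2.90 to 3.75). Mylk was 10.4 times higher in iWAT (9.63 to 11.2) and level in iBAT (1.05, 1.00 to 1.10). The contractile list had 11 genes 2-fold higher than the comparator in these cells and a sum of 22152 CPM in iWAT, where members had 13 and 23212 CPM, and 14 genes and a larger sum than in members, 20574 CPM, in iBAT, where members had 14 and 14729 CPM. The pericyte list was closer to the comparator in them, with 1 gene 2-fold higher in iWAT and 5 in iBAT: its median log2 ratio to the whole comparator was 0.01 for the iWAT contractile stromal cells and 0.24 for the iBAT ones. Mcam was 6.92 times (5.64 to 8.43) and Rgs4 17.9 times (13.8 to 23.1) higher in iWAT members than in contractile stromal cells, and 4.67 (4.22 to 5.17) and 7.98 times (6.95 to 9.16) higher in iBAT members.

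Notch targets came next, as the pathway of the second gene of the rule. Of the receptors and ligands other than Notch3, none of 4 tested was 2-fold higher in iWAT and 1 of 4 was in iBAT: Jag1, the ligand with which mural cells signal to one another, at 78.9 CPM against 17.1 CPM (ratio 4.62, 4.10 to 5.20), where iWAT had 72.3 CPM against 43.2 CPM (1.67, 1.26 to 2.18). Dlk1, an atypical ligand, was the gene of the 4 that was lower in iBAT (0.238, 0.180 to 0.310). Among Notch targets, 3 of 6 were 2-fold higher in iWAT and 4 of 7 in iBAT, none 2-fold lower. Here too a gene low in the comparator, such as Heyl in iBAT, passed 10 CPM only through the members, so the counts are a description. Heyl, a direct Notch3 target in mural cells, was at 24.1 CPM against 8.62 CPM in iWAT (2.79, 1.65 to 4.43) and at 62.8 CPM against 4.96 CPM in iBAT (12.7, 11 to 14.5). Hey1 was 6.96 times higher in iBAT (5.57 to 8.60) and rested on 7 UMIs in iWAT. Hey2 was 25.8 times higher in iWAT, on 8 UMIs (10.9 to 52.4), and 18.5 times in iBAT, on 39 UMIs (13 to 25.8). Nrarp, a feedback inhibitor of Notch, gave 29 UMIs in iBAT members, 21.9 times the comparator level (14.4 to 32.2), and none in iWAT members. Hes1, the target shared by most cell types, was at ratios of 1.41 (1.22 to 1.62) and 0.896 (0.829 to 0.967). The genes of the cleavage and transcription machinery differed little, with 1 of 14 2-fold higher in iWAT and 0 of 15 in iBAT. That is near the 5.84% and 3.21% of all genes.

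The promoter sequence of Hey2 is shown because this gene had a higher level in members of both depots and carries the core of the RBPJ site, through which Notch acts on its targets. Promoter windows are the 250 bases before the RefSeq start (GRCm38.p6). The core searched was GTGGGAA on either strand, and the capitals mark its reverse complement, whose first base lies 207 bases before the start. The window is chr10:30842784-30843033 on the minus strand.
Hey2: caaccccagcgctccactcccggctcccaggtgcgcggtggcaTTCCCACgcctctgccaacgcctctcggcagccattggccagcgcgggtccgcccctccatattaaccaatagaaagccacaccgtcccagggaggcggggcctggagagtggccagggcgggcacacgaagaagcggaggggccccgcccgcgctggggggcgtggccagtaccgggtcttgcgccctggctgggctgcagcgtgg
The core was present in 1779 of 32851 promoter windows (5.42%) and in 2 of the 4 Notch targets with a window, the other being Hes5. It was also in 2 of 16 pericyte genes with a window, Gucy1a1 and Tbx18. For the contractile genes the CArG box, the site of serum response factor, was searched: it was in 482 of 32851 windows (1.47%) and in 2 of 20 contractile genes, Ldb3 and Myl9. Myl9, the regulatory light chain of smooth muscle myosin, was at 529 CPM against 229 CPM in iWAT and 404 CPM against 169 CPM in iBAT, ratios of 2.31 and 2.38. Its window is chr2:156775214-156775463 on the plus strand (GRCm38.p6), with the box in capitals, first base 161 bases before the start.
Myl9: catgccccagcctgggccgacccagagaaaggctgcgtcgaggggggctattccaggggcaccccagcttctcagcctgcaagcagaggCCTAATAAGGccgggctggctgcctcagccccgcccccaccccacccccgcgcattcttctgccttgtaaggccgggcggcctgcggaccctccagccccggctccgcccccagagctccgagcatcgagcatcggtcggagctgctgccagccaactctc
A match describes the letters of the window and nothing more. Heyl, Hey1, Tagln and Myh11 had no window in the table used.

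Vessel-tone genes were higher in part. Of the 20 cyclic GMP and ion channel genes listed, 13 were tested in iWAT and 11 in iBAT. In iWAT 10 were 2-fold higher and 1 lower, and in iBAT 7 and 0, with median log2 ratios of 1.69 and 1.40. A gene low in the comparator, such as Kcnk3 in iWAT, was tested only through its level in members. Pde3a, a phosphodiesterase of vascular muscle, was 4.80 (3.80 to 6.00) and 3.10 times (2.84 to 3.38) higher. Prkg1, a cyclic GMP-dependent kinase, was 2.88 (2.39 to 3.45) and 2.02 times (1.80 to 2.25) higher. Prkg2, another such kinase, had the lowest ratio in iWAT among genes at or above 50 CPM. Kcnk3, an acid-sensitive potassium channel, was at 58.9 CPM against 0.436 CPM in iWAT, 135 times higher (93.9 to 191), and 40.4 times higher in iBAT (32.1 to 50.4). Receptors for vasoactive ligands were mixed, with 4 of 12 at least 2-fold higher and 3 lower in iWAT, and 5 of 15 higher and 0 lower in iBAT. Over all genes 5.84% were higher and 6.27% lower in iWAT, and 3.21% and 2.39% in iBAT. Ednra, the endothelin receptor of vascular muscle, was 4.83 (3.27 to 6.87) and 2.70 times (2.26 to 3.20) higher. Adra1b, an adrenergic receptor, was 34.2 times higher in iWAT (20.8 to 53.3) and 4.76 times in iBAT (3.52 to 6.30). In the other direction, the receptors F2rl1 and Lpar1 were among the 10 lowest ratios in iWAT at or above 50 CPM.

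The largest ratio of any gene at or above 50 CPM in iWAT was that of Ednrb, the second endothelin receptor. It gave 121 UMIs in 20 iWAT members (162 CPM, 134 to 194) against 93 UMIs in all 17069 comparator cells (0.292 CPM), 555 times higher (419.7 to 735). In iBAT members it was at 5.44 CPM against 2.00 CPM, 2.72 times higher (1.66 to 4.22). The 4 members with most Ednrb had 21, 20, 20 and 15 UMIs, so that a few cells carried most of the iWAT level.

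Across all genes, 178 of 9058 (1.97%) were at least 4-fold higher in iWAT members and 56 (0.618%) at least 4-fold lower. In iBAT 97 of 8952 (1.08%) were higher and 34 (0.380%) lower. Members with under 3 UMIs of a gene were set at 3 UMIs. A gene low in the comparator could thus be called 4-fold higher but not 4-fold lower. The fewer UMIs a set of members had, the more genes this touched, so higher and lower counts are not alike. With members that carried Pdgfra left out, the lower counts became 168 in iWAT and 148 in iBAT, and the higher count in iBAT became 185. Of the 8509 genes tested in both depots, 56 were 4-fold higher in both, which is 45.5% of the 123 higher in iWAT and 77.8% of the 72 higher in iBAT. Those bases leave out genes not tested in the other depot and so are smaller than 178 and 97. A gene low in the comparator was tested only through the members, so the overlap is a description. Lower in both were 3 genes, 7.50% of 40 and 17.6% of 17, and none was 4-fold higher in one depot and 4-fold lower in the other.

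Beyond the mural genes, those 4-fold higher in both depots included Tgfb2 and Tgfb3. Tgfb2 was at 471 CPM against 55.3 CPM in iWAT (8.52, 7.64 to 9.46) and at 199 CPM against 28.4 CPM in iBAT (7.01, 6.50 to 7.55). Tgfb3 had ratios of 5.08 (4.39 to 5.84) and 5.05 (4.68 to 5.43). Both encode ligands of the TGF-beta pathway, which promotes the contractile state of mural cells. In the list of genes for vessel contact and angiogenesis that holds them, 6 of 23 were 2-fold higher and 3 lower in iWAT, and 5 of 24 higher and 1 lower in iBAT. Of 5 genes of the PDGF axis tested 1 was 2-fold higher in iWAT and 3 in iBAT. Over all genes 5.84% were higher and 6.27% lower in iWAT, and 3.21% and 2.39% in iBAT. Counts of 1 rest on a single gene. Pdgfa, a ligand of Pdgfra, was 1.92 (1.64 to 2.23) and 2.24 times (2.08 to 2.41) higher. Itga1, a collagen and laminin receptor subunit, was 29.4 times higher in iWAT (26.3 to 32.7) and 6.93 times in iBAT (6.39 to 7.49). Epas1, which encodes the hypoxia-inducible factor HIF-2 alpha, was 10.1 (7.96 to 12.7) and 4.09 times (3.55 to 4.70) higher. Parm1, a membrane mucin-like protein, was 11.4 (10.1 to 12.8) and 8.37 times (7.71 to 9.07) higher. Adgrf5, an adhesion receptor, was 82.2 times higher in iWAT (68.7 to 97.9) and 5.82 times in iBAT (4.59 to 7.28).

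In the basement membrane, 6 of 20 tested genes were 2-fold higher and 3 lower in iWAT, and 5 of 18 higher and 0 lower in iBAT. Beside these stand 5.84% higher and 6.27% lower of all genes in iWAT, and 3.21% and 2.39% in iBAT. Col4a1 and Col4a2, the chains of the ubiquitous type IV collagen, were 2.40 and 2.02 times higher in iWAT and 2.48 and 2.35 times in iBAT. Col18a1, whose end fragment is endostatin, was 17.0 times higher in iWAT (14.2 to 20.3) and 6.26 times in iBAT (5.76 to 6.79). Lama5, a laminin chain, was 7.58 (4.23 to 12.6) and 11.8 times (9.11 to 15) higher.

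Fibrous matrix genes summed to nearly the same level in members of both depots, 41945 CPM in iWAT and 41982 CPM in iBAT, while the comparator had 45564 and 23944 CPM, so for the summed list the comparator differed more between depots than the members did. Of the list, 3 of 19 were 2-fold higher and 2 lower in iWAT (median log2 ratio -0.06), and 9 of 20 higher and 0 lower in iBAT (0.92). Col1a1, the main chain of type I collagen, was level with the comparator in iWAT (0.960, 0.943 to 0.977) and 2.47 times higher in iBAT (2.45 to 2.49). Eln, the elastin of arterial walls, was at 437 CPM in iBAT members (416 to 459) against 11.3 CPM, 38.5 times higher (36.5 to 40.7), and at 50.9 CPM in iWAT members (36.0 to 69.8) against 14.7 CPM, 3.45 times higher (2.44 to 4.74). Eln was found in 82 of 146 iBAT members and 13 of 48 iWAT members. Col14a1, a collagen of fibril surfaces, was 6.06 times higher in iBAT (5.48 to 6.68) and level in iWAT, on 5 UMIs.

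**Figure D2:**
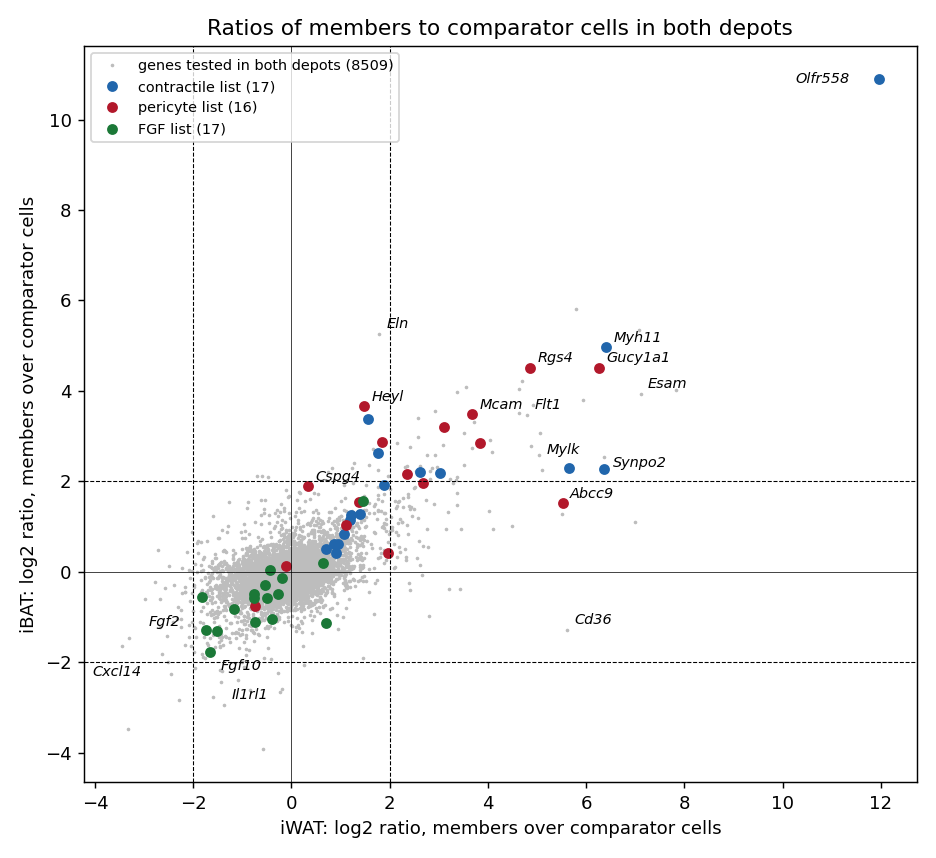
Each point is 1 of 8509 genes tested in both depots, placed by its log2 ratio of members to comparator in iWAT (horizontal) and iBAT (vertical), with dashed lines at 4-fold and the contractile, pericyte and FGF lists in colour. Most pericyte and contractile genes lie to the upper right, Eln, Heyl and Cspg4 lie further out in iBAT and Abcc9, Mylk and Synpo2 further out in iWAT. The comparator had 3 UMIs of Olfr558 in iWAT and 9 in iBAT, and this gene belongs to a large family of similar receptors, so its place is uncertain.

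Genes of the stroma were lower in part, as a list only in members without Pdgfra. Both that subset and the comparator were chosen by Pdgfra, so this contrast is a description. Pdpn, podoplanin of fibroblasts, was at 161 CPM against 447 CPM in iWAT (0.359, 0.298 to 0.430) and at 206 CPM against 606 CPM in iBAT (0.341, 0.317 to 0.366). The stromal identity list had 0 genes higher and 4 of 17 lower in iWAT, and 3 higher and 5 of 18 lower in iBAT. Its median log2 ratio was -0.75 over all iWAT members and -0.08 over all iBAT members. Split by Pdgfra, the median was -1.22 in iWAT members without it and 0.20 in those with it, and -0.64 and 0.06 in iBAT. Dcn, decorin of the fibroblast matrix, was 0.153 times as high in iWAT members without Pdgfra as in those with it (0.0925 to 0.246), and 0.553 times in iBAT (0.424 to 0.714).

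The FGF axis, which the treatment addresses, was lower in part. The mix of treatments in members and comparator is not known, so a difference in it cannot be told apart from these ratios. Of 18 genes tested, 6 were 2-fold lower and 1 higher in iWAT and 7 lower and 1 higher in iBAT, with median log2 ratios of -0.64 and -0.58. The median was -1.08 in iWAT members without Pdgfra and -0.06 in those with it, and -0.89 and -0.57 in iBAT. Fgf2, the ligand given to some of the cultures, was itself at 85.7 CPM in iWAT members (66.0 to 109) against 286 CPM, a ratio of 0.300 (0.231 to 0.383), and at 78.3 CPM in iBAT members (69.5 to 87.9) against 190.5 CPM, a ratio of 0.411 (0.365 to 0.462). Fgf7, a ligand made by stroma, had ratios of 0.352 (0.223 to 0.528) and 0.406 (0.367 to 0.447). Fgfr1, the main FGF receptor of mesenchymal cells, was at 0.447 (0.363 to 0.546) and 0.562 (0.517 to 0.610) times the comparator. The 2-fold higher gene was Spry1, a feedback inhibitor of receptor tyrosine kinases, at 2.73 (2.26 to 3.26) and 2.94 times (2.69 to 3.21) the comparator.

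Of the cytokines and chemokines, 3 of 10 genes in iWAT and 8 of 14 in iBAT were 2-fold lower, with none higher. The median log2 ratio in iWAT was -1.19 in members without Pdgfra and 0.12 in those with it, where 2 genes were 2-fold higher. The summed list in the iWAT members with Pdgfra, 12 cells, was still below the comparator, at 2944 against 3709 CPM. In iBAT the medians were -2.07 and -0.84. Cxcl14, a chemokine abundant in adipose stroma, was at 183 CPM against 1044 CPM in iWAT (0.176, 0.147 to 0.208) and at 88.9 CPM against 354 CPM in iBAT (0.251, 0.225 to 0.280). Ccl2, which attracts monocytes, had ratios of 0.283 (0.223 to 0.354) and 0.285 (0.267 to 0.304). Among the lowest ratios in iBAT was that of Il1rl1, the interleukin-33 receptor, at 105 CPM against 806 CPM (0.130, 0.118 to 0.144), where iWAT gave 0.388 (0.328 to 0.457). Spp1, osteopontin, stood at 0.191 (0.183 to 0.199) in iBAT and 0.472 (0.441 to 0.504) in iWAT.

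Of the adipogenic and thermogenic list, 5 of 12 genes tested were 2-fold higher in iWAT and 1 lower, and 1 of 11 higher and 2 lower in iBAT. Fabp4, a fatty acid-binding protein of adipocytes and capillary endothelium, was at 735 CPM in iWAT members (675 to 799, in 42 of 48 cells) against 42.9 CPM, 17.1 times higher (15.7 to 18.6), and 1.93 times higher in iBAT (1.80 to 2.07). Cd36, a fatty acid transporter, had a ratio of 48.9 in iWAT (33.6 to 69.1) and of 0.412 in iBAT (0.240 to 0.660). Pparg, the master factor of adipogenesis, had ratios of 3.49 (2.31 to 5.05) and 1.25 (1.05 to 1.47).

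Transcription factors of mural development were mixed: 5 of 17 tested were 2-fold higher and 2 lower in iWAT, and 3 of 20 higher and 1 lower in iBAT. Of all genes in iBAT 3.21% were higher and 2.39% lower, so the 1 lower gene there is near that share. Tbx18, a T-box factor of the mural lineage, was 3.89 times higher in iWAT (2.92 to 5.08) and 1.33 times in iBAT (1.13 to 1.55). Foxs1, a forkhead factor of pericytes, was 2.61 (1.89 to 3.50) and 2.93 times (2.58 to 3.32) higher. No Hox gene was 2-fold higher, of 19 tested in iWAT and 17 in iBAT, and 4 were lower in iWAT. Over all genes 5.84% and 3.21% were higher and 6.27% lower in iWAT, so the absence of higher Hox genes is near that share. Positional genes were found in the depot of the stroma around them: Hoxc10, a posterior Hox gene, was at 149.9 CPM in iWAT members and 148 CPM in the iWAT comparator and had no UMI in iBAT members, while Zic1, a factor of the dorsal trunk, was at 23.7 CPM in iBAT members and 19.2 CPM in their comparator and had no UMI in iWAT members.

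Cell division genes set the subsets of members apart. Of 12 genes tested, 1 was 2-fold lower in iWAT and none in iBAT, near the 6.27% and 2.39% of all genes. The median log2 ratio was -1.01 in iWAT members without Pdgfra and 0.41 in those with it, and -1.14 and -0.03 in iBAT. Top2a, a mitotic topoisomerase, was 0.412 times (0.299 to 0.568) and 0.474 times (0.383 to 0.582) as high in members without Pdgfra as in those with it. The 8 housekeeping genes had no member 2-fold higher or lower, with medians of 0.18 and -0.07. Interferon-stimulated genes were 2-fold higher in 0 of 17 in iWAT and in 3 of 12 in iBAT, beside 5.84% and 3.21% of all genes. In iBAT 56.6% of the UMIs of Ifit1 and 65.9% of those of Ifit3 lay in 1 cell each.

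Mural genes ran the other way between the subsets. Myh11 was 2.99 times (1.99 to 4.67) higher in iWAT members without Pdgfra than in those with it, at 339.6 and 114 CPM, the latter from 12 cells of which 4 had 12, 6, 4 and 2 UMIs and the others 0 or 1. It was 4.89 times (3.87 to 6.21) higher in iBAT, at 205 and 41.9 CPM. Mcam was 5.60 times (2.94 to 12.0) higher in iWAT and 2.23 times (1.88 to 2.64) in iBAT. Esam, an adhesion molecule of endothelial and mural cells, was 1.78 (1.09 to 3.03) and 7.59 times (5.04 to 11.7) higher. Some mural genes in iBAT did not follow: Abcc9 was at 20.5 and 20.4 CPM (ratio 1.01, 0.577 to 1.69), and Heyl at 71.2 and 59.6 CPM (1.19, 0.892 to 1.59). The median log2 ratio of the pericyte list to the comparator was 3.04 in iWAT members without Pdgfra and 1.32 in those with it, and 2.96 and 1.94 in iBAT. In iBAT the 97 members with Pdgfra thus had, summed as a class, pericyte transcripts above the comparator at a lower level. Both subsets with Pdgfra were uneven from cell to cell: in iBAT a pair of cells had 27 and 26 Myh11 UMIs and most had none.

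**Figure D3:**
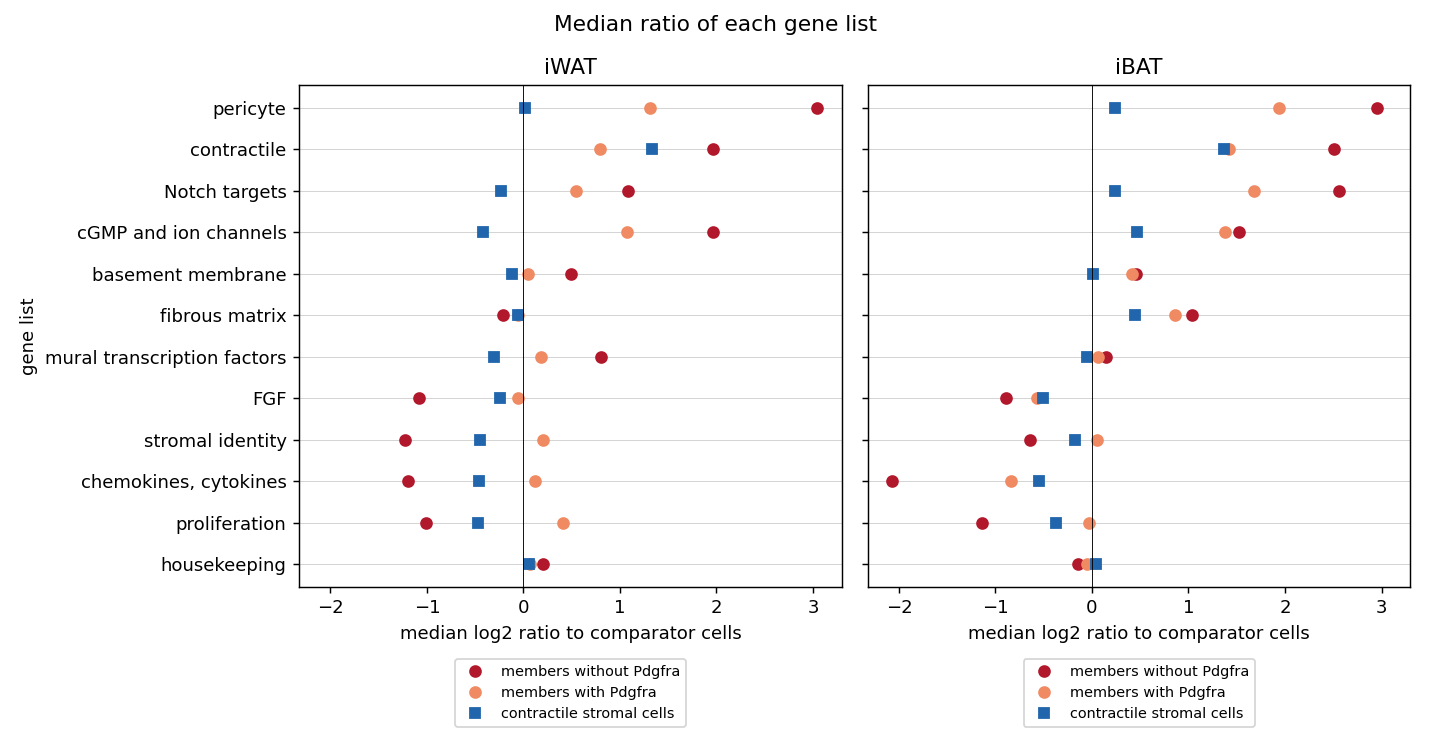
Median log2 ratio to the comparator of 12 gene lists in members without Pdgfra, members with Pdgfra and contractile stromal cells of each depot. The pericyte list is at 3.04 and 2.96 in members without Pdgfra and at 0.01 and 0.24 in contractile stromal cells, while housekeeping genes lie near 0 in every class.

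Shares of cells were compared after each cell was thinned to 10000 UMIs, which 42 of 48 iWAT members, 15313 of 17069 iWAT comparator cells and all cells of both classes in iBAT reached. Immune cells, which should lack mural transcripts, served as the background, with 92 of 136 cells deep enough in iWAT and 215 in iBAT and median depths of 12161 and 23766 UMIs. Myh11 was detected in 73.8% of thinned iWAT members, 2.15% of comparator cells and 4.35% of immune cells, and in 23.3%, 2.05% and 0 of 215 cells, which allows up to 1.40%, in iBAT. Unthinned, the shares of members with Myh11 were 79.2% and 30.1%. Mcam was detected in 69.0%, 10.3% and 6.52% in iWAT and in 58.2%, 8.41% and 2.79% in iBAT, and unthinned in 79.2% and 74.0% of members. Both genes were thus found in a larger share of members than of immune cells. At least 3 of 9 mural markers outside the rule were found in 30 of 42 iWAT members (71.4%) and in 72 of 146 iBAT members (49.3%), against 16.2% and 6.05% of comparator cells and 4.35% and 0% of immune cells. Unthinned, 89.6% of iWAT members and 74.0% of iBAT members had 3 or more. In members without Pdgfra the shares were 90.6% and 65.3%, and in those with it 10% and 41.2%. For the iWAT members with Pdgfra that is 1 of 10 cells, whereas unthinned 9 of 12 of them (75%) had 3 or more, beside 31.2% of the comparator, so this subset was too small at the thinned depth to be placed above or below the comparator.

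Each member was then placed among its 20 nearest cells in expression, on 2000 variable genes from which those of the rule were left out. In iWAT a member had a median of 10 other members among the 20 and 0 comparator cells, and 38 of 48 had at least 5 members, 34 of the 36 without Pdgfra and 4 of the 12 with it. The median number of neighbours with any Rgs5 UMI was 19 in iWAT and 4.5 in iBAT. Such cells cannot be comparator cells, and in iWAT many of them were outside the rule. In iBAT the medians were 2 members and 13 comparator cells, 33 of 146 had at least 5 members, and 40 had none. Of those 33, 23 were among the 49 without Pdgfra and 10 among the 97 with it, and 37 of the 97 had no member neighbour. Members made up 39.5% of the neighbours in iWAT and 14.7% in iBAT, where they were 0.161% and 0.517% of all filtered cells. Comparator cells made up 16.9% of the neighbours in iWAT and 58.9% in iBAT, where they were 57.4% and 88.2% of all filtered cells. In both depots members thus had more member neighbours and fewer comparator neighbours than the makeup of the library, to a lesser degree in iBAT.

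**Figure D4:**
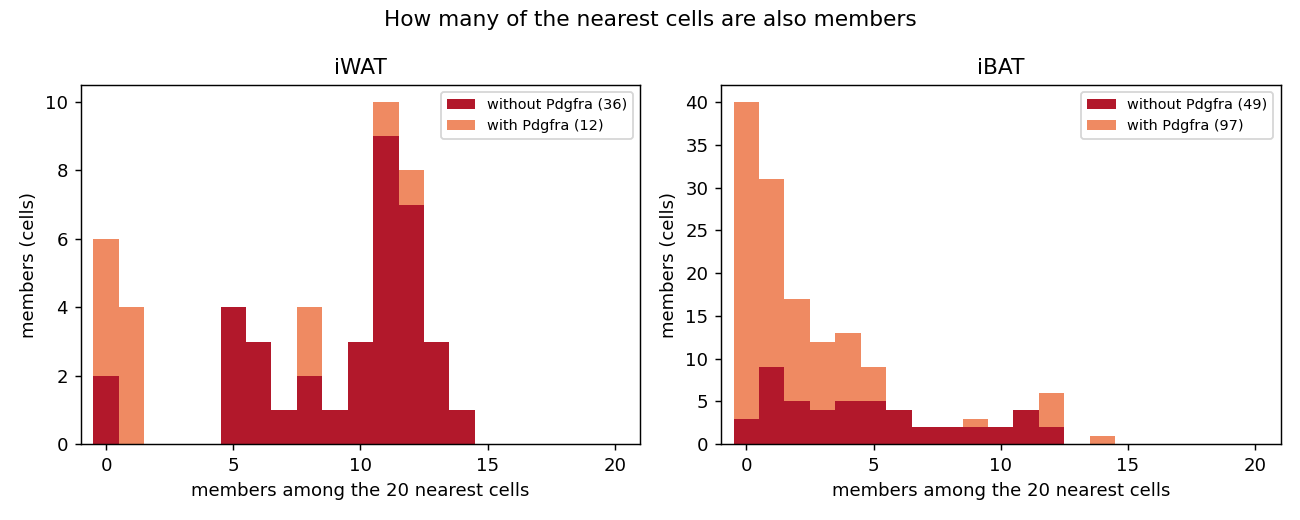
Number of members (vertical axis) by how many of their 20 nearest cells are also members (horizontal axis), stacked by whether a Pdgfra UMI was found. Most iWAT members without Pdgfra have 5 or more, and 40 iBAT members have 0.

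The level of Rgs5 was used by the rule, so the steps below are a description and no check of the label. Members were split at 3 to 4, 5 to 9 and at least 10 Rgs5 UMIs, and the median log2 ratio of the pericyte list was 2.16, 2.59 and 3.57 in iWAT and 2.13, 1.91 and 2.47 in iBAT. For the contractile list it was 1.30, 1.53 and 1.74 in iWAT and 0.96, 1.45 and 2.08 in iBAT. Myh11 was at 200.3, 256 and 395 CPM in iWAT and at 34.8, 80.4 and 152 CPM in iBAT, and so was higher at each step in both depots. The share of members with Pdgfra fell over the same steps: 36.8, 20 and 14.3% in iWAT and 76, 69.6 and 54% in iBAT. Rgs5 level and Pdgfra were not separated here.

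Markers of other cell types were looked for in the members. Endothelial genes were higher as a list, at a summed 534 CPM in iWAT members against 31.7 CPM and 236 CPM in iBAT members against 47.6 CPM. All 3 tested genes of the 12 were 2-fold higher in each depot. A gene under 10 CPM in the comparator could be tested only through the members, so this count is a description. Most of that was Flt1, a VEGF receptor, at 359 CPM against 12.8 CPM in iWAT (27.9, 24.6 to 31.6) and 149 CPM against 13.5 CPM in iBAT (11.1, 10.2 to 12.1), and Esam, at 135 and 34.3 CPM. The defining endothelial genes were nearly absent: Cdh5 gave 1 UMI in iWAT members and 9 in iBAT members, Cldn5 0 and 1, and Tie1 0 and 1. The rule left out cells with Pecam1, which endothelial cells carry, so this near-absence is a description and no check of the label. By comparison the cells with both Pecam1 and Cdh5 had a summed endothelial level of 1328 CPM in iWAT and 4394 CPM in iBAT.

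No epithelial gene was 2-fold higher, of 7 tested in iWAT and 1 in iBAT, and 5 of the 7 were 2-fold lower. The rule left out cells with Epcam and the comparator did not, so this is a description. Krt5 and Krt14, the basal keratins, had no UMI in iBAT members. The immune list summed to 14.7 CPM in iWAT members and 26.1 CPM in iBAT members, below the comparator levels of 32.2 and 82.2 CPM. Schwann cell genes summed to 17.4 and 15 CPM and mesothelial genes to 50.9 and 13.1 CPM. Myog, the factor of differentiating muscle, was found in 4 iBAT members, 1 of them a doublet call, with 217 and 134 UMIs in a pair of cells and 3 and 1 in the others. Myog or Myod1 was detected in 2.74% of iBAT members and in 2.72% of all filtered iBAT cells, so the members were at the share of the library. Without the 4 members that carried Myog or Myod1 the summed skeletal muscle list was at 13.5 CPM in place of 185 CPM, and its median log2 ratio turned from 2.33 to -2.11. The count of pericyte genes 2-fold higher in iBAT members was 14 with and without these cells.

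Between the depots, the members' levels and those of the comparator are given side by side, with no test. Members with Pdgfra were 25% of all members in iWAT and 66.4% in iBAT, so values for members without it are added where they move the ratio most. Eln was 8.59 times higher in iBAT than in iWAT members, where the comparator ratio was 0.769; without Pdgfra the levels were 993 CPM in iBAT and 55.0 CPM in iWAT. Igfbp2, an insulin-like growth factor-binding protein, was 11.5 times higher in iBAT members and at 1.02 in the comparator, with 173 and 3.93 CPM in members without Pdgfra of iBAT and iWAT. Heyl was 2.61 times higher in iBAT members against 0.576 in the comparator, and Cspg4 1.87 against 0.637, with 189 and 60.9 CPM in members without Pdgfra. In the other direction, Synpo2 was 13.9 times higher in iWAT members and 0.815 in the comparator, Abcc9 3.87 against 0.242, and Ednrb 29.8 against 0.146. Myh11 was 3.07 times higher in iWAT members against 1.13 in the comparator, but the iWAT members without Pdgfra had 339.6 CPM where the iBAT ones had 205 CPM, a smaller gap. Postn, a matricellular protein, was 6.62 times higher in iWAT members and 8.15 times in the comparator, so that for this gene members and stroma differed between depots alike.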

How the data were processed

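Stromal vascular cells cultured from iWAT and iBAT were profiled as 1 BD Rhapsody whole-transcriptome library per depot. The authors deposited raw counts (UMIs per gene and cell) as filtered matrices of 29962 and 28636 barcodes, with medians of 16138 and 27401 UMIs per cell and totals of 503611913 and 815235820. Per the submitters' processing notes, Seurat (5.0.0) and mm39 were used. Cells of a class were summed and expressed as CPM of that class. Intervals are exact Poisson for levels, conditional exact binomial for ratios and Clopper-Pearson for shares, all at 95%, and cover counting error only. A class with under 3 UMIs was set at 3 UMIs for a ratio. Genes with at least 10 CPM in members or comparator were compared, and called by size at 2-fold or 4-fold, with no test. Named genes were the 15 highest and 10 lowest ratios per depot among genes with at least 50 CPM, the 10 highest in both depots, and genes of the lists. Nearest cells came from 30 principal components of 2000 variable genes (scikit-learn 1.9.0), and doublets from Scrublet in scanpy (1.11.5) at an assumed rate of 0.08, marked but kept. The summing and interval steps were tested on simulated data. Gene positions are from GRCm39 and promoters from RefSeq (GRCm38.p6). The members and lists were chosen with earlier results of these data known. Treatment was not analysed here, since cells were not assigned to tags.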

Additional observations from a re-analysis of the deposited data

How the results depend on the processing

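The members' share moved with most changes to the rule, where moved means outside the interval of the reported share. In iWAT it was 0.410% at an Rgs5 minimum of 1, 0.0975% at 5, 0.0471% at 10, 0.0941% at a Notch3 minimum of 2, 0.282% with no Notch3 requirement and 0.0952% with cells thinned first, while an Rgs5 minimum of 2 (0.208%) and no Pdgfra allowed (0.121%) kept it inside the interval. In iBAT it was 1.77% at a minimum of 1, 0.702% at 2, 0.340% at 5, 0.177% at 10, 0.411% and 0.677% for the same changes to Notch3, 0.174% with no Pdgfra allowed and 0.262% after thinning. Counts of 4-fold lower genes were 114 and 59 (iWAT and iBAT) at an Rgs5 minimum of 5, 106 and 109 at 10, 168 and 148 without Pdgfra, and 12 and 11 at 50 CPM. They were 97 by the mean of per-cell CPM in iWAT, and 54 with thinned cells and 86 with no CPM filter in iBAT. Counts of 4-fold higher genes were 282 and 148 at an Rgs5 minimum of 10, 69 and 31 at 50 CPM, 337 and 291 with no CPM filter, and 185 without Pdgfra in iBAT. At 50 CPM fewer genes were tested, and 11 pericyte genes in iWAT and 7 in iBAT, and 8 contractile genes in iBAT, were 2-fold higher. The counts under the other alternatives, among them the removal of doublets, median of ratios scaling and a stricter comparator, stayed within 1.5 times the reported ones. So did those under 2 alternatives chosen after seeing the data: without members that carried Myog or Myod1, 95 genes were 4-fold higher and 41 lower in iBAT (the skeletal muscle list, by contrast, turned its median log2 ratio from 2.33 to -2.11), and with comparator cells that carried Epcam or Pecam1 left out, 186 and 53 in iWAT and 98 and 34 in iBAT. No paired analysis was possible because each depot is 1 library. Values of low transcripts such as Kcnj8, at 6 UMIs in iWAT members, have wide counting intervals.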
